A study of Mus musculus with 16 samples.

Results

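The SALL (spalt-like) genes Sall1, Sall2, Sall3 and Sall4 encode a family of zinc-finger transcription factors. OCT4 binding around them was read from a merged list of OCT4 ChIP-seq peaks in 2TS22C mouse embryonic stem (ES) cells. A peak was assigned to a SALL gene when its midpoint lay inside the annotated gene body or within 100 kb of any annotated transcript start of that gene. By this rule 30 of the 26704 peaks in the list were SALL peaks, namely 15 at Sall4, 8 at Sall1, 5 at Sall3 and 2 at Sall2.

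2TS22C is a mouse ES cell line in which a doxycycline-repressible (Tet-Off) transgene is the source of SOX2, so that doxycycline shuts SOX2 off, and some SOX2 protein remains when the cells are collected. The OCT4 libraries came from cells left without doxycycline (SOX2 ON) or given 1 µg/ml doxycycline for 26 h (SOX2 OFF), with 2 replicates each. The same series holds BRG1 ChIP-seq (2 SOX2 ON and 2 SOX2 OFF libraries) and H3K27ac ChIP-seq in 2TS22C and in ZHBTc4, the line in which doxycycline for 24 h shuts off OCT4, and cells of all 16 libraries grew in serum, LIF, CHIR99021 and PD184352. The list gives coordinates only, and the libraries that entered the merge are not stated, so the values below are presence and position of peaks without height, depth or replicate error, and peaks of SOX2 ON cells cannot be told apart from those of SOX2 OFF cells. A gene without a listed peak may have had one below the calling threshold.

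SALL proteins carry clusters of zinc fingers and, near their amino terminus, a short motif that recruits the NuRD complex, which joins chromatin remodelling to histone deacetylation. Sall4 is part of the transcription factor network of ES cells and is needed in the early embryo, and Sall1 is expressed in ES cells and is required for kidney development. Sall3 is known from neural tissue and Sall2 is the most divergent member of the family. OCT4, encoded by Pou5f1, binds DNA together with SOX2 at a composite site, in which a SOX element stands beside an octamer.

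The sequences below show what lay under the SALL peaks that carried a composite match, and under the peak nearest to a transcript start at Sall1, Sall2 and Sall4. Each is the central 300 bases of the peak, on the plus strand of GRCm38 as given by RefSeq. Peaks of a gene are numbered from upstream to downstream. Capitals mark composite matches and SOX cores, whose letters are given further on.
Sall1 peak 5 (chr8:89003536-89003835): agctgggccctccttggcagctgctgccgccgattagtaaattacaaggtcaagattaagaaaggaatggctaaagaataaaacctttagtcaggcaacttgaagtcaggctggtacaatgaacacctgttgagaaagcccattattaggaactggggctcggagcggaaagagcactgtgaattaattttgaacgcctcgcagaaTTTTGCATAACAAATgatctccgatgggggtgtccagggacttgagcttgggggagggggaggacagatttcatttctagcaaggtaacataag
Sall1 peak 3 (chr8:89053150-89053449): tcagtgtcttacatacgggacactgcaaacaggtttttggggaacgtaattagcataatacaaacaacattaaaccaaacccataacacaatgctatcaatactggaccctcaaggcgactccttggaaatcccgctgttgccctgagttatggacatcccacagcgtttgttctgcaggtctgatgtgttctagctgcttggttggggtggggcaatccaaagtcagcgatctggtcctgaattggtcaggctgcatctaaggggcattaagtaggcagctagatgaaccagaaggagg
Sall2 peak 1 (chr14:52331067-52331366): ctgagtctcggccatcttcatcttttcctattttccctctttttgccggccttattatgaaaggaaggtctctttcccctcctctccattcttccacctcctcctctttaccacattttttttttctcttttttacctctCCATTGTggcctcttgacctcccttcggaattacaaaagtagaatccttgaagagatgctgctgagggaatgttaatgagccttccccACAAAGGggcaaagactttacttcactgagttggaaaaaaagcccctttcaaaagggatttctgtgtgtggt
Sall4 peak 3 (chr2:168838899-168839198): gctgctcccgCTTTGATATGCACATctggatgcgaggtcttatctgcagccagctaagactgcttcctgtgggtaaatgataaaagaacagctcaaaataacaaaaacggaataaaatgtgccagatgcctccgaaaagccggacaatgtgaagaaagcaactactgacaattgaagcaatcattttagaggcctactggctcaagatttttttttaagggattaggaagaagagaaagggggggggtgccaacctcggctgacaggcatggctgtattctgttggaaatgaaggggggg
Sall4 peak 8 (chr2:168764578-168764877): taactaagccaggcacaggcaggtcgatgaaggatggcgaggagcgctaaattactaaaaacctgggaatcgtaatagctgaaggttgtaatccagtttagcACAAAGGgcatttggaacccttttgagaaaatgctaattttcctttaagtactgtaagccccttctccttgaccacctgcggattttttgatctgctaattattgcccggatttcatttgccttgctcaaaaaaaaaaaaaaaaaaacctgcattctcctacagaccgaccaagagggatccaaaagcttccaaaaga

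Sall1 peak 5 and Sall4 peak 3 were the only SALL peaks with a composite match, and each differed from the composite at 3 of its 15 letters. Read in the direction SOX element to octamer, the sites were as follows.
Sall1 peak 5, minus strand: ATTTGTTATGCAAAA
Sall4 peak 3, plus strand: CTTTGATATGCACAT
The Sall1 site lay at chr8:89003742-89003756, 64 bp from the middle of its peak, which lay in intergenic sequence 40.5 kb downstream of the Sall1 start. The Sall4 site lay at chr2:168838909-168838923, 132 bp from the middle of its peak, which lay in intergenic sequence 71.8 kb upstream of the start of the Sall4 coding transcript. Sall1 peak 3, the nearest to the Sall1 start, held neither a composite match nor a SOX core and so has no capitals. Sall2 peak 1 held 2 SOX cores, and Sall4 peak 8 held 1.

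The paralogs differed in how many peaks surrounded them. Among 21938 protein-coding genes counted by the same rule, the median was 3 peaks per gene, the middle 50% of genes had 1 to 5, and 14.3% had none. Sall4, with 15 peaks, was among the 0.356% of genes with at least that many. That share was 1.31% with a distance of 50 kb, 1.09% with 200 kb and 0.0729% when genes were ranked by peaks per 100 kb of window. Sall1, with 8, was reached or passed by 8.47% of genes, and Sall3, with 5, by 30% of genes. Sall2, with 2 peaks, stood below the median gene, since 71.6% of genes had at least as many. The windows were close in length, from 200.001 kb at Sall1 to 212.44 kb at Sall2, and the order was the same per 100 kb of window, at 7.08 peaks for Sall4, 4.00 for Sall1, 2.36 for Sall3 and 0.941 for Sall2, against a median of 1.40 over all protein-coding genes. The order Sall4, Sall1, Sall3, Sall2 describes 1 list, and with no value per library it has no spread to set against the gaps.

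**Figure D1:**
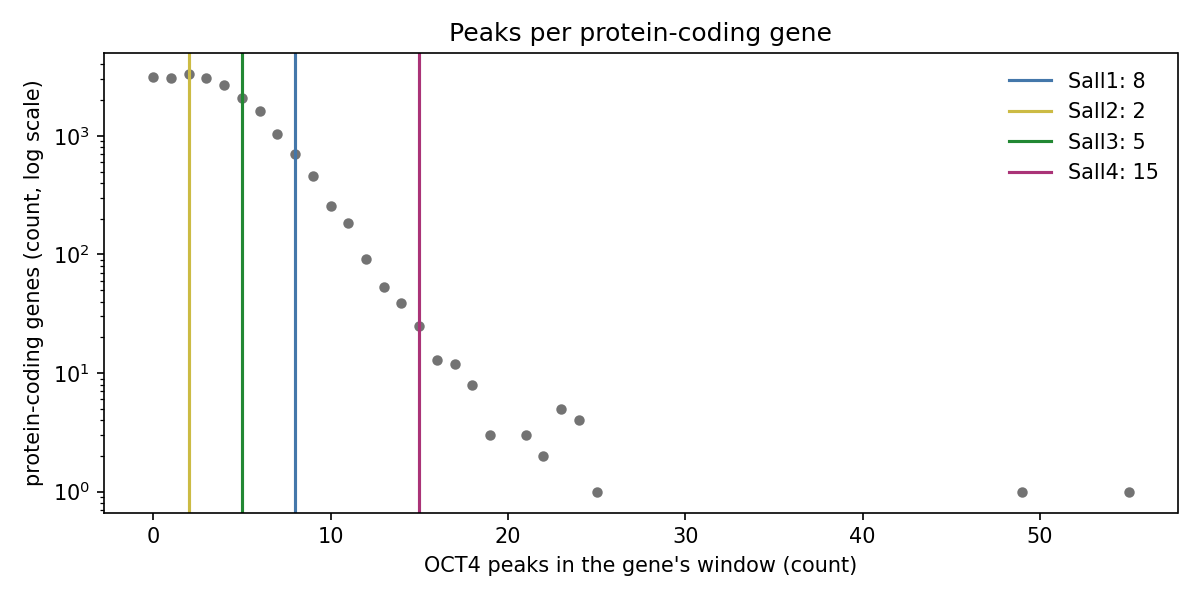
Number of OCT4 peaks in a gene's window (x axis, count) against the number of protein-coding genes with that count (y axis, log scale); each point is 1 count and the coloured lines mark the 4 SALL genes. Sall2 (2 peaks) and Sall3 (5 peaks) fall within the bulk of genes, and Sall4 (15 peaks) falls where few genes are found.

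Sall4 (ENSMUSG00000027547.17, chr2:168748332-168767943, minus strand, 7 annotated transcripts) had peaks on both sides and inside the gene. Of its 15 peaks, 7 lay upstream of its most upstream start, 4 inside the gene and 4 downstream. Relative to the start of the transcript with the longest coding sequence, at position 168767201, the upstream peaks were at 99.7, 79.2, 71.8, 53.9, 40.0, 24.1 and 2.38 kb. The intragenic peaks were at 2.47, 4.46, 5.11 and 5.95 kb downstream of it, all in the first intron. The remaining peaks lay 24.5, 49.8, 65.1 and 72.4 kb downstream. The 4 intragenic peaks and the peak just upstream formed an unbroken run of 5 peaks over 8.69 kb (chr2:168761094-168769780), in which neighbouring midpoints were never more than 10 kb apart. Runs of at least 5 such peaks made up 79 of the 21558 runs and single peaks in the whole list, or 0.366%.

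Several Sall4 peaks were nearer to another gene. By nearest protein-coding transcript start, 9 of the 15 belonged to Sall4 itself, while Sall1 kept all of its 8, so the 2 genes were then close in count. Of the other 6 peaks, the most upstream pair was nearest to Zfp64, another zinc-finger gene, and the 4 downstream peaks were nearest to Atp9a, which encodes a phospholipid-transporting ATPase. Of those 4, 3 lay in introns of Atp9a, and the fourth (chr2:168742214-168743232, the widest SALL peak at 1019 bp) had its midpoint 314 bp from the Atp9a start. Atp9a itself had 14 peaks, 13 of which were also Sall4 peaks, and Zfp64 had 8, of which 4 were shared. The list cannot tell which of these genes a shared peak belongs to.

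Sall1 (ENSMUSG00000031665.7, chr8:89027235-89044162, minus strand, 1 annotated transcript) had all of its 8 peaks outside the gene. The upstream peaks stood 28.9, 23.6 and 9.14 kb from the start, and the downstream peaks 28.3, 40.5, 52.1, 90.8 and 98.2 kb from it. None lay within 9.14 kb of the start or in the gene body, and a gene body with 0 peaks was found for 70.6% of protein-coding genes. All 8 were intergenic, and Sall1 was the nearest protein-coding gene for each, with no other protein-coding transcript start inside its window. Within 50 kb of its start Sall1 had 5 peaks.

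Sall2 (ENSMUSG00000049532.11, chr14:52311172-52328762, minus strand) had 1 peak upstream, 2.45 kb from the start (chr14:52331029-52331404), and 1 downstream (chr14:52284250-52284764). The downstream peak lay in an intron of Tox4, an HMG-box gene, with its midpoint 1.23 kb from a Tox4 start and 31.8 kb from the nearest Sall2 start. The window of Sall2 held transcript starts of 8 other protein-coding genes, against 0 for Sall1 and 1 each for Sall3 and Sall4, so that Sall2 had the fewest peaks in the most gene-dense window of the family.

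Sall3 (ENSMUSG00000024565.9, chr18:80966376-80986771, minus strand) had 4 of its 5 peaks inside the gene. These lay 1.92, 3.92, 4.38 and 5.58 kb downstream of its start, and the fifth lay 64.8 kb upstream. Sall3 was the nearest protein-coding gene for all 5. No Sall3 peak lay downstream of the gene, on the side of Atp9b, the paralog of Atp9a, which had 4 peaks in its window, 0 in its body, all 4 of them shared with Sall3.

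**Figure D2:**
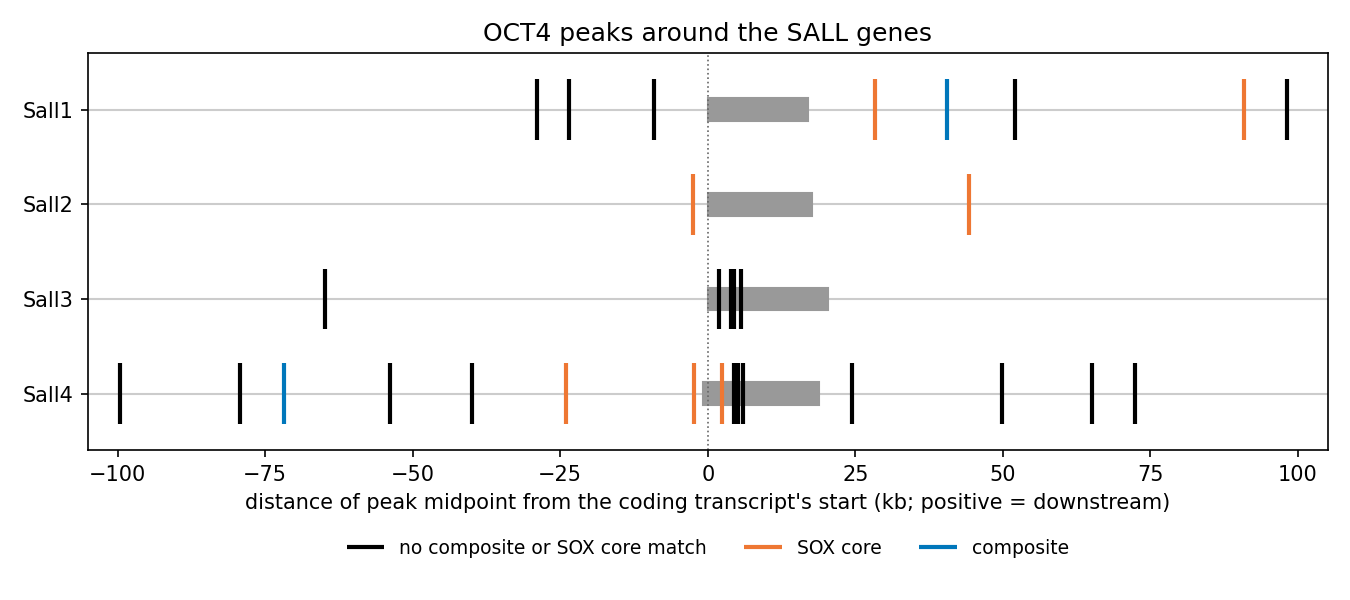
Midpoints of the 30 SALL peaks (vertical marks) by distance in kb from the start of each gene's transcript with the longest coding sequence (x axis, positive values downstream), with annotated gene bodies in grey and marks coloured by motif match. Sall1 (8 peaks) and Sall2 (2 peaks) have no mark on the gene body, whereas Sall3 and Sall4 have 4 each.

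The first introns of Sall3 and Sall4 resembled each other in peak layout. Each held 4 peaks, in introns of 11.8 kb (Sall3) and 10.1 kb (Sall4), and 1.06% of the 20620 protein-coding genes with a first intron had at least 4 peaks in 1. That share took first introns of any length, and was not matched to the length of these introns or to the peak count of the gene. In the direction of transcription, the midpoints at Sall3 were 1999, 463 and 1200 bp apart, and at Sall4 1985, 655 and 831 bp apart. From first to last midpoint, the peaks spanned 3.66 kb at Sall3 and 3.47 kb at Sall4. The peaks lay 1.605, 3.604, 4.067 and 5.267 kb into the intron at Sall3, and 2.184, 4.169, 4.824 and 5.655 kb into it at Sall4. In both introns the first gap was the widest, the second the narrowest, and the third peak the narrowest peak, at 209 bp in Sall3 and 225 bp in Sall4. The match was noticed after the positions had been seen, and how often other introns share such a layout was not counted. This layout rests on narrow and closely spaced peaks. Among peaks of at least 300 bp, 2 remained at Sall3 and 3 at Sall4, and with peaks within 1 kb joined there were 2 in each intron, so neither the 4 peaks nor the order of the gaps was kept. The first intron of Sall1, at 1.59 kb, and that of Sall2, at 12.4 kb, held 0 peaks.

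**Figure D3:**
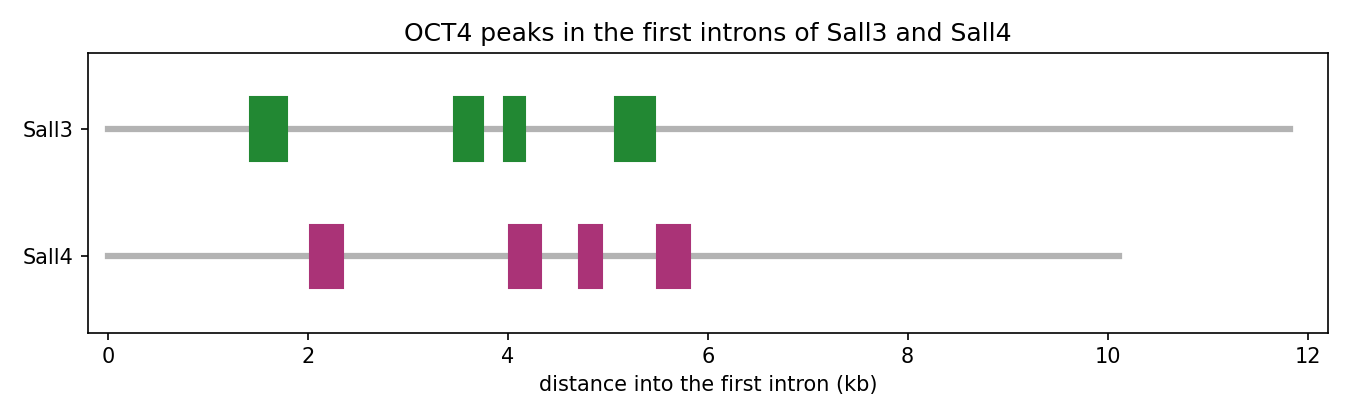
Peaks (boxes, drawn to scale) along the first intron (grey line) of Sall3 and Sall4, by distance in kb from the 5′ end of the intron (x axis). Both introns hold 4 peaks, with the midpoints of the first 2 about 2 kb apart (1999 bp at Sall3 and 1985 bp at Sall4) and a narrow gap after them.

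The similar layout was not accompanied by alignable sequence. BLASTN between the windows of the paralogs, run after the positions had been seen, gave 50 alignments, of which 37 lay in coding sequence of both genes, at 67.1 to 100% identity. The alignment at 100% was only 27 bases long, and the longest in coding sequence, at 553 bases, had 67.1% identity. The alignments overlapped 0 of the 30 peaks. Of the 13 alignments between Sall3 and Sall4, 11 were in coding sequence of both, and the other 2 joined exons of Atp9b and Atp9a, so that the gene beside each paralog also had its counterpart beside the other. Intronic repeats were masked in this comparison, and shorter or more divergent similarity would not have been found.

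Motif content was searched over whole peaks on both strands. The composite OCT4::SOX2 motif was taken as the SOX element CATTGT, then a T, then the octamer, with up to 3 mismatches. The octamer was ATGCAAAT, the SOX core CCATTGT or CCTTTGT, and the motifs of other ES cell or developmental regulators TCAAGGTCA (ESRRB), GGGTGTGG (KLF) and GCCNNNGGC (AP-2), all without mismatch. The octamer is contained in the composite, and the SOX core CCATTGT overlaps its SOX element, so these classes are not independent. A composite match was found in 2 of 30 SALL peaks, or 6.67% (95% Wilson interval 1.85 to 21.3), and in 11.5% of all peaks. The share depended on the definition, at 0% with up to 2 mismatches (2.21% of all peaks), 20% with up to 4 (35.9%) and 3.33% in the central 200 bp of peaks (8.59%), and stayed below that of the list in each. No SALL peak held an exact octamer (0 of 30, interval 0 to 11.4%), against 11% of all peaks. SOX cores were found in 7 SALL peaks, or 23.3% (11.8 to 40.9), and in 30.3% of all peaks. Any of the 3 was present in 9 SALL peaks, or 30% (16.7 to 47.9), against 43.7% of all peaks. All 4 SALL shares lay below those of the list, and each interval included the share of the list. The intervals cover counting error only and treat the 30 peaks as independent, although 17 of them had another peak within 10 kb. They are therefore descriptive, and whether the SALL peaks differ from the list was not tested.

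By paralog the numbers were too small to separate. The 95% Wilson intervals of the share of peaks with a SOX core were 34.2 to 100% at Sall2, 7.15 to 59.1% at Sall1, 7.05 to 45.2% at Sall4 and 0 to 43.4% at Sall3, and all 4 overlapped. Overlap of intervals is not a test, and none was run between the paralogs. Both Sall2 peaks held a SOX core, as did 2 of 8 Sall1 peaks (those at 28.3 and 90.8 kb downstream) and 3 of 15 Sall4 peaks, which were the neighbouring peaks 24.1 and 2.38 kb upstream and 2.47 kb downstream of the coding transcript's start. The Sall4 peak 24.1 kb upstream held 3 SOX cores. In Sall2 peak 1, shown above, a CCATTGT core lay 6 bp from the peak's midpoint, and in the Sall1 peak 28.3 kb downstream a CCATTGT core lay 2 bp from it. None of the 5 Sall3 peaks held a match to any of the 6 motifs. The best composite stretch in a Sall3 peak had 4 mismatches and in the others 6, so the first-intron peaks of Sall3 and Sall4 that were alike in layout did not share a motif from this set. Of those at Sall4, 1 of 4 held a SOX core.

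For the other factors, the KLF motif occurred in 3 SALL peaks (1 each at Sall1, Sall2 and Sall4), or 10% (3.46 to 25.6), against 6.35% of all peaks. AP-2 occurred in 3 (2 at Sall1, 1 at Sall4), or 10% (3.46 to 25.6), against 12.5% of all peaks, and ESRRB in 0 of 30 against 3.08%. The KLF share thus lay above that of the list and the other 2 below, and each interval included the share of the list. The Sall1 peak 28.3 kb downstream was the only SALL peak to hold SOX core, KLF and AP-2 matches together. A match is a run of letters and not evidence of binding by the factor it is named for.

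**Figure D4:**
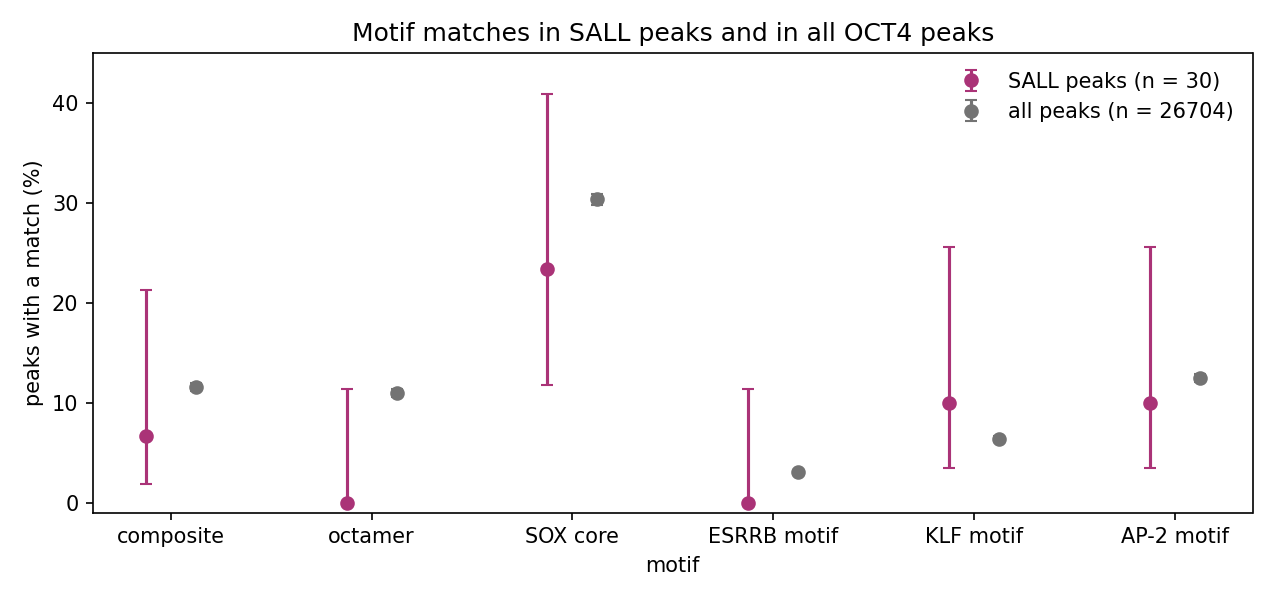
Share of peaks with at least 1 match (y axis, %) for 6 motifs (x axis), in the 30 SALL peaks and in all 26704 peaks, with 95% Wilson intervals. No SALL peak held an octamer or an ESRRB motif, and every interval of the SALL peaks includes the share over all peaks.

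The SALL peaks were ordinary in size and base content. Their median width was 348.5 bp (209 to 1019 bp), against 352 bp over all peaks. Median G and C content was 47.8% (39.7 to 58.0%), against 46.4%. A median of 13.8% of bases was repeat-masked, 37.9% at most, against a median of 13.0% for the list, so no SALL peak lay mainly in repeats. By paralog the median width was 415.5 bp at Sall1, 445.5 bp at Sall2, 366 bp at Sall3 and 325 bp at Sall4, and the median G and C content was lowest at Sall3, at 43.7%, and highest at Sall1, at 49.3%. Merging joins overlapping peaks, so a width is that of the union.

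**Figure D5:**
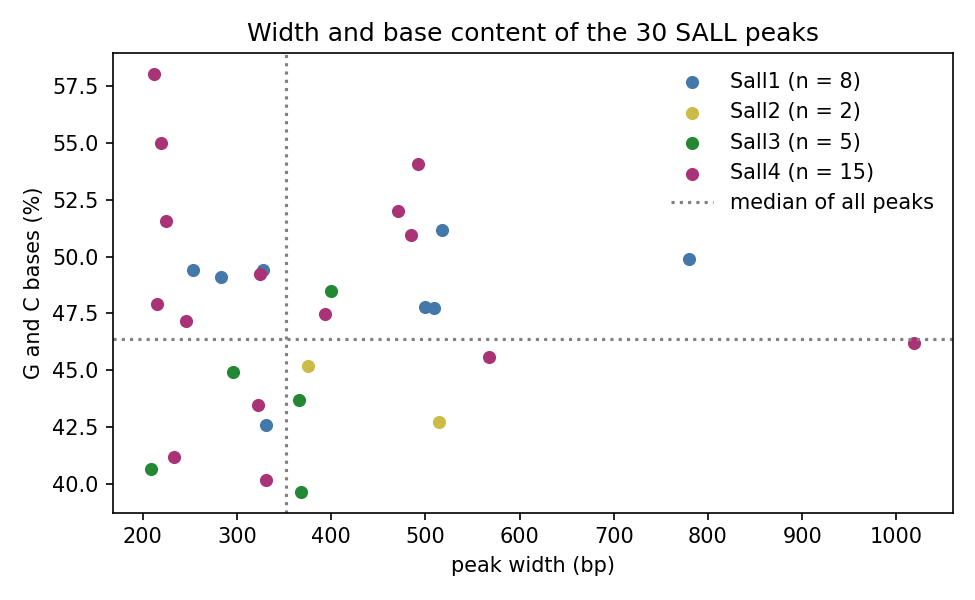
Width in bp (x axis) and share of G and C bases in % (y axis) of each SALL peak, coloured by gene, with dotted lines at the medians of all peaks (352 bp and 46.4%). The paralogs overlap in both measures, and the widest SALL peak is the Sall4 peak of 1019 bp beside Atp9a.

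Midpoints of 12 SALL peaks (40%) lay in introns, 0 in exons and 18 (60%) in intergenic sequence, against 45.5% intronic, 8.39% exonic and 46.1% intergenic over the whole list. Of the intronic peaks, 4 were in Sall3, 4 in Sall4, 3 in Atp9a and 1 in Tox4. Only 2 SALL peaks (6.67%) had a midpoint within 1 kb of a protein-coding transcript start, against 13.8% of all peaks. These were the peak beside Atp9a and Sall4 peak 8, which lay 519 bp from an alternative Sall4 start and 2.47 kb from that of the coding transcript. No SALL peak therefore lay within 1 kb of the start of the longest coding transcript of its gene, the shortest such distances being 1.92 kb at Sall3, 2.38 kb at Sall4, 2.45 kb at Sall2 and 9.14 kb at Sall1. Another peak stood within 10 kb of 17 SALL peaks (56.7%), of which 9 were at Sall4, 4 at Sall3, 4 at Sall1 and 0 at Sall2, against 33.9% of all peaks.

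The SALL genes were set beside their partners. In the NuRD complex, 12 genes had 1 to 12 peaks each with a median of 6, none had 0, and none had as many as the 15 of Sall4. The highest were Mta3 with 12, a subunit that varies between forms of the complex, and Chd4, its remodelling ATPase, with 9, followed by Mta2, Rbbp4 and Rbbp7 with 7 each. In the core ES cell network, 12 genes had 1 to 13 peaks with a median of 5, and none had 0. Over all protein-coding genes the median was 3 and 14.3% had 0, so lists of 12 are too short to stand out by having none. Pou5f1, which encodes OCT4 itself, had 13, Nanog had 12, and Sox2 and Tbx3 had 9. The other ES cell markers Klf4, Esrrb and Zfp42 had 5, 8 and 4. Sall4 had more peaks than every one of these 24 genes, Sall1 had more than the median of either list, and Sall3 and Sall2 did not. At least 15 peaks were found for 0.356% of all protein-coding genes. The place of Sall4 above the 24 genes thus repeats its rank among all genes and is not a trait of the 2 lists. Counting by nearest protein-coding start, Sall4 kept 9 and was matched or passed by 2 network genes, and at 50 kb it had 9 against 8 for Pou5f1. Both of these counts were added after the data had been seen.

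Sall4 shared its peak count with 24 other protein-coding genes. Those closest to it in window length were the histone genes Hist1h4h and Hist1h4m, whose windows differed from that of Sall4 by 12 kb, and Brca1, a DNA repair gene, at 31.8 kb. The 78 genes with at least 15 peaks, Sall4 included, stood at 66 separate places in the genome once overlapping windows were joined, and only 8 of them had a window as short as that of Sall4 or shorter.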

How the data were processed

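ChIP was performed by the authors on fixed cells of 16 libraries in 8 groups of 2 biological replicates. Reads were aligned by the authors with STAR 2.6.1c to GRCm38 (mm10), deduplicated with Picard, called with MACS2 2.1.1.20160309 and merged with BEDTools. The deposited list holds chromosome, start and end in base pairs, without counts, heights or library names. The BRG1 and H3K27ac libraries were not analysed here.

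Coordinates are 1-based. GENCODE M21 gave genes and RefSeq GRCm38 the sequence. The first intron and coding start were those of the transcript with the longest coding sequence, while the share of genes with at least 4 peaks in a first intron allowed any transcript. Intervals are 95% Wilson intervals. No test was run, because peaks are not replicates. BLASTN (BLAST+ 2.17.0) used word size 7, an E-value limit of 0.001 and lower-case masking. Python 3.11.15, pandas 2.3.3 and pysam 0.24.0 were used. On simulated data, 200 of 200 peak counts and 200 of 200 placed composite matches were recovered. This checks the counting and search code only, and not whether a peak or match belongs to a gene or factor.

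The members and gene lists were chosen with earlier results of these data known. Genes were named by rule: the SALL genes, the 3 highest of each list and any at 0, the 3 genes most like Sall4 in count and window, and genes within 1 kb of or around a SALL peak. Zfp64, Atp9b, the further ES cell markers and the first-intron and alignment comparisons, with their alternatives and those of the network comparison, were added after seeing the data. A protein comparison was planned and not run, since no protein table was used here.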

Additional observations from a re-analysis of the deposited data

How the results depend on the processing

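Of 56 alternatives for 16 results, 29 stayed within 1.5 times the reported count, or within the interval of a share or the spread of the widths, and 27 moved. Every alternative of the shares of genes counted as moved, since an interval over 21938 genes is narrow, so the tally is not a measure of robustness. The order of the paralogs by count was the same at 50 and 200 kb. At 50 kb the counts were 5 (Sall1) and 9 (Sall4), and Sall2 and Sall3 had 2 and 4. With peaks of at least 300 bp they were 6 (Sall1), 2 (Sall2), 3 (Sall3) and 9 (Sall4). With peaks within 1 kb joined they were 8 (Sall1), 2 (Sall2), 3 (Sall3) and 13 (Sall4). By nearest protein-coding start they were 8 (Sall1), 1 (Sall2), 5 (Sall3) and 9 (Sall4), so that Sall4 and Sall1 were then close. The share of genes with at least as many peaks became, per 100 kb, at 50 kb and at 200 kb, 3.85%, 10.4% and 11.2% for Sall1, 65.4%, 50.2% and 86.9% for Sall2, 23.6%, 18.2% and 53.3% for Sall3, and 0.0729%, 1.31% and 1.09% for Sall4. With at most 2 mismatches 0% of SALL peaks held a composite match (2.21% of all peaks), with at most 4 mismatches 20% (35.9%), and in the central 200 bp 3.33% (8.59%). With 1 mismatch allowed 46.7% held an octamer (53.5% of all). Neighbours within 5 kb and 20 kb were found for 9 and 26 SALL peaks (18.7% and 52.7% of all peaks). In alternatives chosen after seeing the data, the first introns held 2 (Sall3) and 3 (Sall4) peaks of at least 300 bp, and 2 and 2 with peaks within 1 kb joined, and by nearest start 2 network genes had at least as many peaks as Sall4. The construction of each alternative sets these shifts. No paired analysis was possible because the merged coordinates carry no replicate values. The list carries no depth, so an absent peak cannot be told from one below the threshold.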
